A study of Homo sapiens with 4 samples.

Results

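Gene expression in IMR90 cells that carried a cleaved form of the histone H3.3 for 13 days was compared with that of growing IMR90 cells at the same day. IMR90 is a fibroblast line from lung, and all cultures were at passage 16. The late library (H3.3cs1, day 13) came from cells infected with a retrovirus for cleaved H3.3 with a Flag tag at its C-terminus, and the growing library (day 13) from cells infected with the empty retroviral vector pBabe. Values from 2 further libraries are given beside them as levels: an early library (H3.3cs1, day 3) and a library of oncogene-induced senescence (OIS) from cells with an inducible H-RasV12 construct, 8 days after addition of 10 nM tamoxifen. The compared members were all loci with a gene name and an FPKM (fragments counted on a transcript, scaled by its length and by the mapped fragments of the library) of at least 1 in the growing or the late library. They numbered 11685 of the 24158 named loci, out of 26468 loci in all. Each group had 1 library, so the spread between cultures is unknown, no test was made, and every difference below describes these libraries. Any other difference between these cultures cannot be told apart from the cleaved histone. The early library has no control of its own day, so early and growing differ in day as well. OIS likewise has no control of its own, and differs from growing in day, construct and tamoxifen.

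H3.3 is the replacement form of histone H3, which is made throughout the cell cycle and placed into chromatin outside of DNA replication. Its N-terminal tail carries many of the marks that activating and repressing complexes write and read, and cleavage of the tail removes them from the nucleosome. Senescence is a lasting exit from the cell cycle in which fibroblasts keep their metabolism, and often change their chromatin, matrix and secreted proteins.

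Differences were taken as log2(late FPKM + 1) minus log2(growing FPKM + 1), a scale that understates the change of loci with low values. All folds below are on this scale, and the words rose and fell are kept for loci whose difference reached 2-fold. On that rule 431 loci rose (3.69% of those compared) and 667 fell (5.71%), so that 9.4% were past the fold in either direction and 39.3% of these had risen. Larger differences leaned further to the lower side. At 4-fold, 71 loci were higher (0.608%) and 199 lower (1.7%), and at 8-fold, 23 were higher (0.197%) and 83 lower (0.71%). The median difference over all loci was -0.044. The depth of the libraries is not known in reads. The lowest values above 0, which follow what 1 fragment is worth, put the late library at about 76.6% of the depth of growing, from 683 low loci of which 200 shared the main step. Among the 733 loci with a mean FPKM of 100 or more the balance was the other way, with 37 higher and 21 lower, whereas of the 4454 loci between 5 and 20 FPKM 128 were higher and 279 lower.

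**Figure D1:**
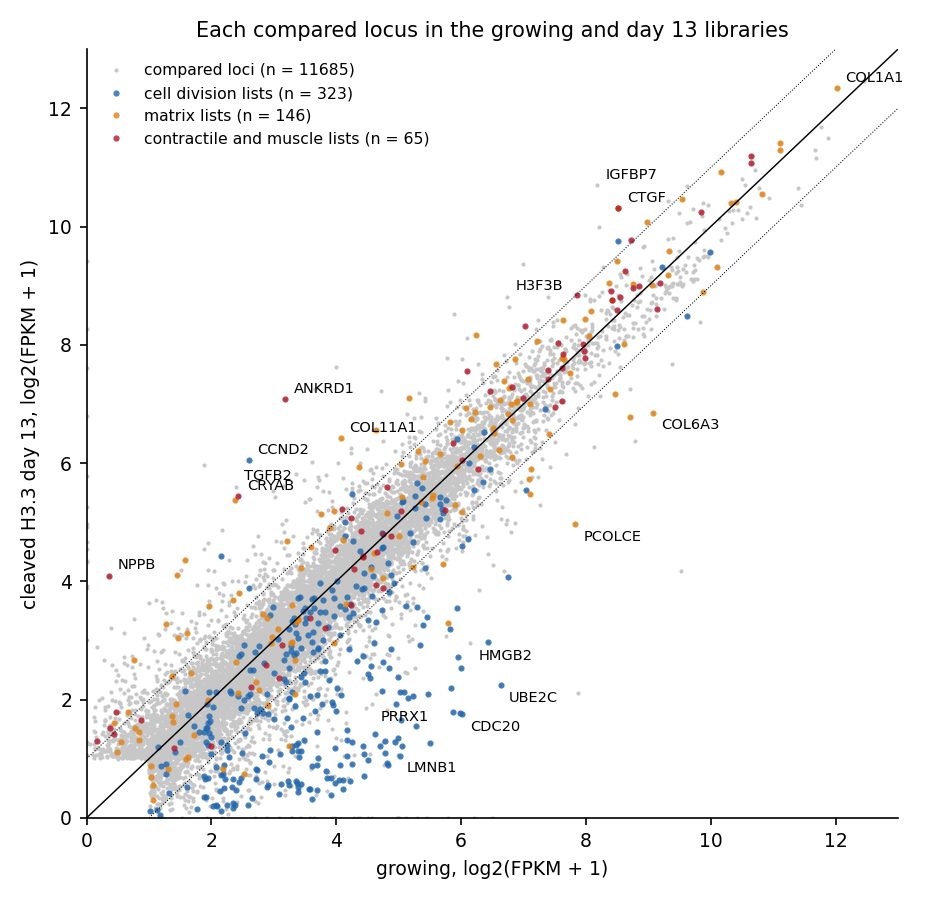
Level of each of the 11685 compared loci in the growing library (x axis) and the late library (y axis), both as log2(FPKM + 1), 1 library a side. Points beyond the 2-fold lines are the 431 loci that were higher and the 667 that were lower, and the lower ones include a dense group at middle levels in growing cells.

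The genes of cell division made up much of the lower side. The 15 lists of replication, cell cycle control with the CDK inhibitors, mitosis, kinesins of all kinds, chromosome structure and DNA repair together held 323 compared genes, of which 171 fell and 5 rose, with a median difference of -1.13. The 5 were CCND2, 3 CDK inhibitors and a transport kinesin light chain. The 171 that fell were 25.6% of all loci that fell. The largest falls and rises were ranked among single-symbol loci above 0 in both libraries and at 5 FPKM or more in the higher, without short or uncharacterised RNAs. Of the 30 largest falls, all of which were at least 11-fold, 24 were genes of these lists. In all 30 the early library lay between growing and late, and OIS lay below the late library in 25. In bulk RNA, fewer cycling cells and less RNA per cycling cell cannot be told apart.

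In the step that prepares origins for replication, 19 of 23 genes fell and none rose, with a median of -1.85. CDT1, which loads the MCM helicase onto origins, was at 11.3 FPKM in growing, 2.69 in early, 0.843 in late and 3.13 in OIS, a fall of 6.65-fold. GINS2, a subunit of the active helicase, was at 17, 4.55, 1.07 and 1.22 FPKM across these libraries and fell 8.68-fold. Of the helicase subunits themselves, MCM7 went from 55.8 FPKM in growing to 8.11 in late, MCM5 from 30.6 to 4.2 and MCM6 from 12.7 to 2.8. All 6 subunits of the MCM ring, MCM2 to MCM7, were past 2-fold. GMNN, the geminin that blocks CDT1, also fell, from 22.3 to 4.14 FPKM, so the loader and its inhibitor were both lower in the late library.

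At the replication fork 19 of 29 genes fell and none rose (median -1.26). KIAA0101, which binds the sliding clamp, showed the largest difference, at 30.9 FPKM in growing, 6.65 in early, 1.55 in late and 1.92 in OIS. The clamp gene PCNA was at 67.9, 47.4, 25.2 and 23.6 FPKM, a fall of 2.63-fold. The clamp loader genes RFC2, RFC3, RFC4 and RFC5 also fell, RFC2 from 42.6 to 9.51 FPKM. Of the genes that supply nucleotides, 14 of 25 fell and none rose (median -1.10). RRM2, the regulated subunit of ribonucleotide reductase, was at 62.5 FPKM in growing, 10.3 in early, 2.41 in late and 3.74 in OIS. Thymidine kinase TK1 fell 11-fold, from 63.1 to 4.82 FPKM, and thymidylate synthase TYMS from 31.6 to 3.39 FPKM.

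The lowest medians were in lists of mitosis and chromosome compaction, although the spindle checkpoint and anaphase list had a median of -0.44. Among mitotic kinases, spindle and cytokinesis genes 23 of 26 fell and none rose, with a median of -3.15. PLK1, a kinase of mitotic entry and spindle assembly, was at 57.4 FPKM in growing, 8.9 in early, 2.44 in late and 0.647 in OIS. The chromosomal passenger complex, which corrects attachments and directs cytokinesis, fell as a whole: AURKB went from 29.8 to 1.43 FPKM, BIRC5 from 32.3 to 1.33, CDCA8 from 20.8 to 1.11 and INCENP from 14.5 to 2.74. TUBA1B, an alpha tubulin of all cells, also counts in this list, at 782 FPKM in growing and 357 in late. It is one of several near-identical tubulin genes, so its value is uncertain.

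The kinesin genes differed between the mitotic list and the rest. Of the 12 motors that work in mitosis 11 fell, with a median of -2.67. Of the 19 remaining kinesins and light chains, listed for transport and other roles, none fell and 1 rose, with a median of 0.089. KIF20A, a motor of cytokinesis, was at 27.4 FPKM in growing, 4.23 in early, 0.855 in late and 0.178 in OIS. KIF2C, which takes microtubules apart at centromeres, fell from 20.7 to 0.639 FPKM. The gene of the remaining list that rose was KLC4, a kinesin light chain and not a motor, at 5.05 FPKM in growing, 12.9 in early, 13.8 in late and 10.3 in OIS.

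At the kinetochore, the protein assembly that ties chromosomes to the spindle, 25 of 34 genes fell and none rose (median -2.11). NDC80, which holds the microtubule, was at 14.2 FPKM in growing, 2.72 in early, 0.300 in late and 0.197 in OIS. CENPA, the H3 variant that marks the centromere, fell from 9.51 to 0.438 FPKM, and its chaperone HJURP from 15.7 to 0.861 FPKM. Among the spindle checkpoint and anaphase-promoting complex genes 9 of 24 fell (median -0.44). Those 9 included UBE2C, the ubiquitin-conjugating enzyme of that complex and the largest of these falls, at 98.6 FPKM in growing, 16.8 in early, 3.73 in late and 2.16 in OIS, a fall of 21-fold. Its activator CDC20 was at 63.8, 10.1, 2.36 and 0.84 FPKM and fell 19.3-fold.

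All 11 genes of condensin and topoisomerase II, which compact and untangle chromosomes, fell (median -2.69). TOP2A, the isoform of dividing cells, was at 44.2 FPKM in growing, 10.1 in early, 1.41 in late and 1.25 in OIS. TOP2B, the isoform that non-dividing cells also use, was at 27.6, 24.2, 13.1 and 24 FPKM, so its fall of 2.03-fold was far smaller than that of TOP2A at 18.7-fold. The fall of TOP2B was under 2-fold after centring and after quantile normalization, which left 10 of the 11. Cohesin, which holds sister chromatids together, had 4 of 14 genes lower, CDCA5, ESCO2, SGOL1 and SGOL2, which regulate cohesion in dividing cells. The ring subunit RAD21 is on the joined locus MIR3610,RAD21, not counted in the list, which fell from 51 to 20.4 FPKM. Recombination and Fanconi genes fell in 15 of 29 (median -1.10). In the other repair pathways 2 of 32 fell, among them the glycosylase NEIL3 from 3.44 to 0.0801 FPKM.

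**Figure D2:**
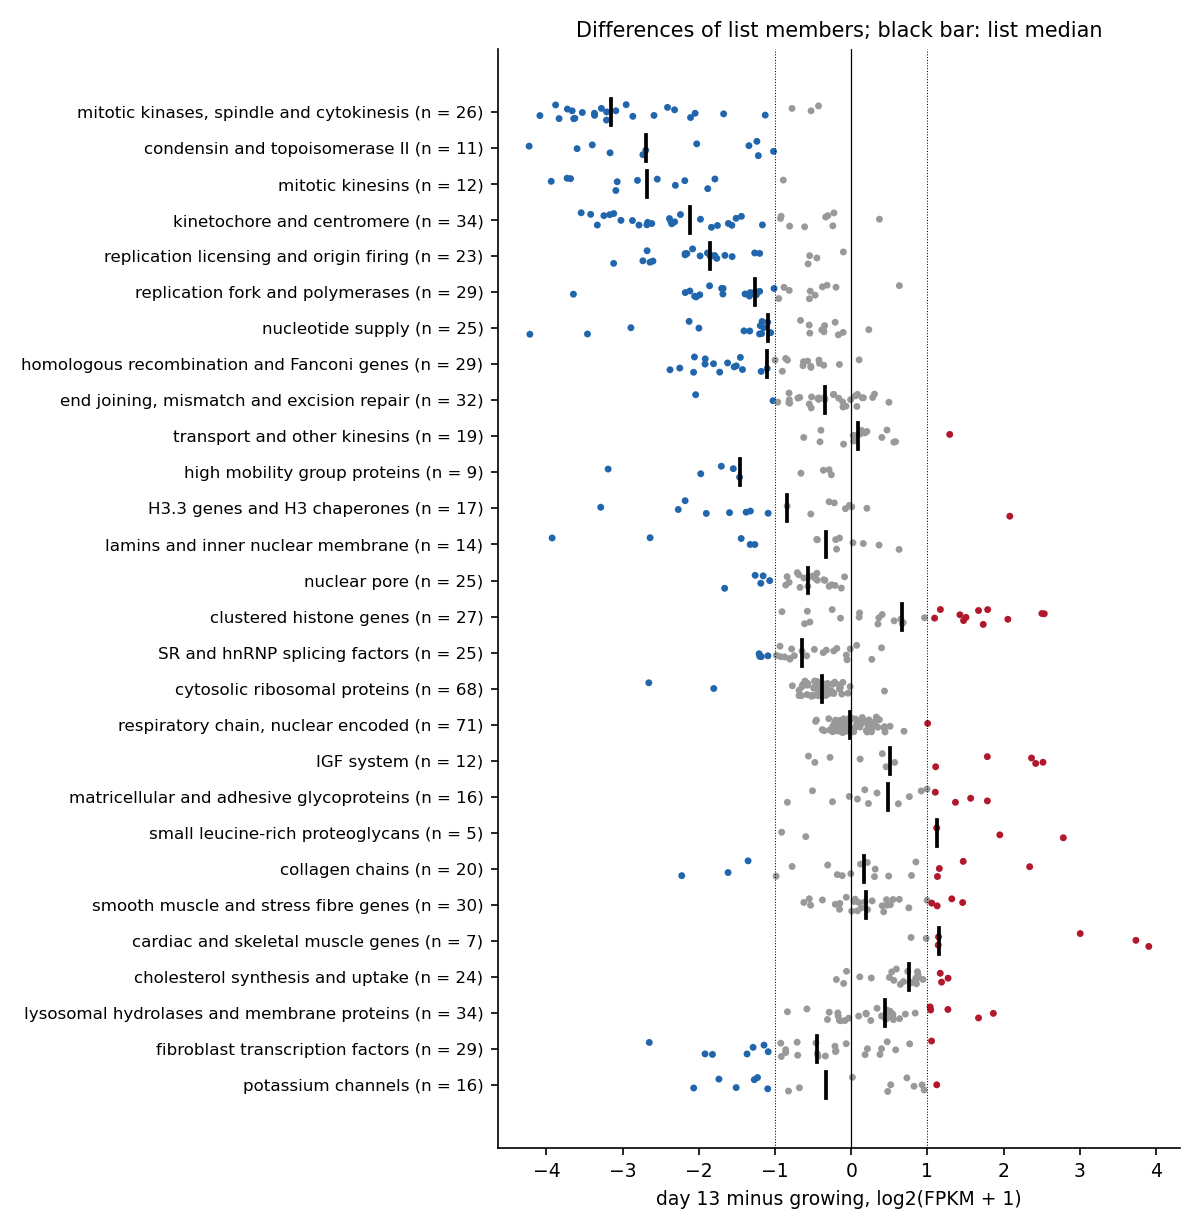
Differences of the compared members of 28 of the 81 gene lists, picked after their values were seen, as log2(late FPKM + 1) minus log2(growing FPKM + 1). Each point is a gene (blue lower and red higher by 2-fold, marked by dotted lines) and the black bar is the list's median. Medians of mitosis and replication lists lie below 0, such as -3.15 for mitotic kinases and spindle genes, against a median of -0.044 over all loci.

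Among the cyclins, their kinases and the phosphatases that switch them, 12 of 19 fell and 1 rose. CCNB1, the mitotic cyclin, fell from 61 to 5.62 FPKM, CCNB2, another mitotic cyclin, from 31.7 to 2.14, and their partner CDK1 from 31.3 to 1.07 FPKM. The gene that rose was CCND2, a cyclin of the G1 phase, at 5.07 FPKM in growing, 2.63 in early, 65.2 in late and 4.81 in OIS, a rise of 10.9-fold. Early and OIS were both below growing for this gene. Of the CDK inhibitors 3 of 8 rose and 2 fell. CDKN2B (p15) was at 3.43 FPKM in growing, 4.62 in early, 20.5 in late and 37.3 in OIS, and rose 4.86-fold. CDKN1A (p21) rose 2.36-fold and CDKN2A 2.33-fold. FPKM per locus does not separate the p16 and ARF products of CDKN2A. CDKN2C (p18) went the other way, from 13.4 to 0.592 FPKM, as did CDKN3, a phosphatase, from 23.5 to 1.68 FPKM. In the E2F and DREAM list 6 of 19 fell, including the activators FOXM1, from 26.5 to 1.45 FPKM, and MYBL2, from 13.3 to 0.727 FPKM.

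Genes of mitosis and of replication are known to be switched by different promoter elements: the cell cycle homology region (CHR) in many mitotic genes, and E2F sites in many replication genes. RefSeq promoter windows of GRCh38.p14, from 250 bases before to 50 after a start, were found for 8890 of 11036 compared single-symbol genes (80.6%). They were searched on both strands for the CHR letters TTTGAA and for the E2F letters TTCCCGC or TTGGCGC. None of these motifs contains another. CCAAT, the AP-1 letters TGANTCA and the E-box CACGTG were searched in the same way. The stretches below are shown because they carry these letters in genes named above. They are the ones printed for mitosis and replication out of 23 gene and motif pairs that were looked at for mitosis, replication and the TEAD genes described later, all picked after the differences were known. Of the 23 pairs, 10 had 1 window with a match before the start, 3 had several windows, 6 had no match before the start and 4 had no window, so the 10 printed in all are examples and not a sample. Each runs 5′ to 3′ in the direction of the gene, ends at or before the start site, and has the matched letters in capitals.
CCNB2 (chr15:59105077-59105145, strand +): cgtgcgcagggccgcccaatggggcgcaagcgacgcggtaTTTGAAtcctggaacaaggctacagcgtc
PLK1 (chr16:23678820-23678888, strand +): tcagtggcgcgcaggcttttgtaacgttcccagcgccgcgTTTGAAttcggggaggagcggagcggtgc
CDC20 (chr1:43358876-43358965, strand +): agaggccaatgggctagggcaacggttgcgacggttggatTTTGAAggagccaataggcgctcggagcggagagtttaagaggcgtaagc
TOP2A (chr17:40417998-40418087, strand -): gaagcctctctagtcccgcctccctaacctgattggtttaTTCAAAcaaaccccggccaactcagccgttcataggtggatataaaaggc
CDT1 (chr16:88803726-88803788, strand +): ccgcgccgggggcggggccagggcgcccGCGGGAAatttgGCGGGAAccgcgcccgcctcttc
GINS2 (chr16:85688955-85689025, strand -): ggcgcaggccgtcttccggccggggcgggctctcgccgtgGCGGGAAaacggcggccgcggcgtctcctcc
MCM6 (chr2:135876483-135876572, strand -): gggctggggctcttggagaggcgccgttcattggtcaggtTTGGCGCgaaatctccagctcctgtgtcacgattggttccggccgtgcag

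In TOP2A the capitals show the CHR letters of the opposite strand, and in CDT1 and GINS2 they show those of the E2F letters TTCCCGC. Shares below are of genes with a window, and a gene with several windows counted if any of them held the letters. The CHR letters were in the windows of 13.8% of all genes, of 29.3% of the 482 that fell and of 15.4% of the 292 that rose. They were in 16 of 22 genes of the mitotic kinase and spindle list (72.7%), 8 of 12 mitotic kinesins (66.7%) and 9 of 10 condensin and topoisomerase II genes (90.0%). Against these stood 1 of 20 genes of the licensing list (5%) and 1 of 26 of the fork list (3.85%). The E2F letters were in 18.2% of all genes, in 30.9% of those that fell and in 13.4% of those that rose. They were in 12 of 20 licensing genes (60%) and 17 of 26 fork genes (65.4%), against 4 of 22 mitotic kinase and spindle genes (18.2%). Other lists held both: the kinetochore list had CHR letters in 46.4% and E2F letters in 35.7% of 28 genes, and the spindle checkpoint list in 38.1% and 28.6% of 21. The letters were also common in lists with few or no falls. Clustered histone genes, of which 11 of 27 rose and none fell, had CHR letters in 10 of 21 genes with a window (47.6%). Proteasome genes, of which 1 of 36 fell, had E2F letters in 14 of 31 (45.2%). CCAAT was in 43.4% of all genes, 52.9% of those that fell and 43.2% of those that rose. The AP-1 letters were in 6.75%, 5.6% and 10.6% in the same order, and the E-box in 12.8%, 10.8% and 9.59%. The letters are a description of these windows and not a measurement of binding.

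**Figure D3:**
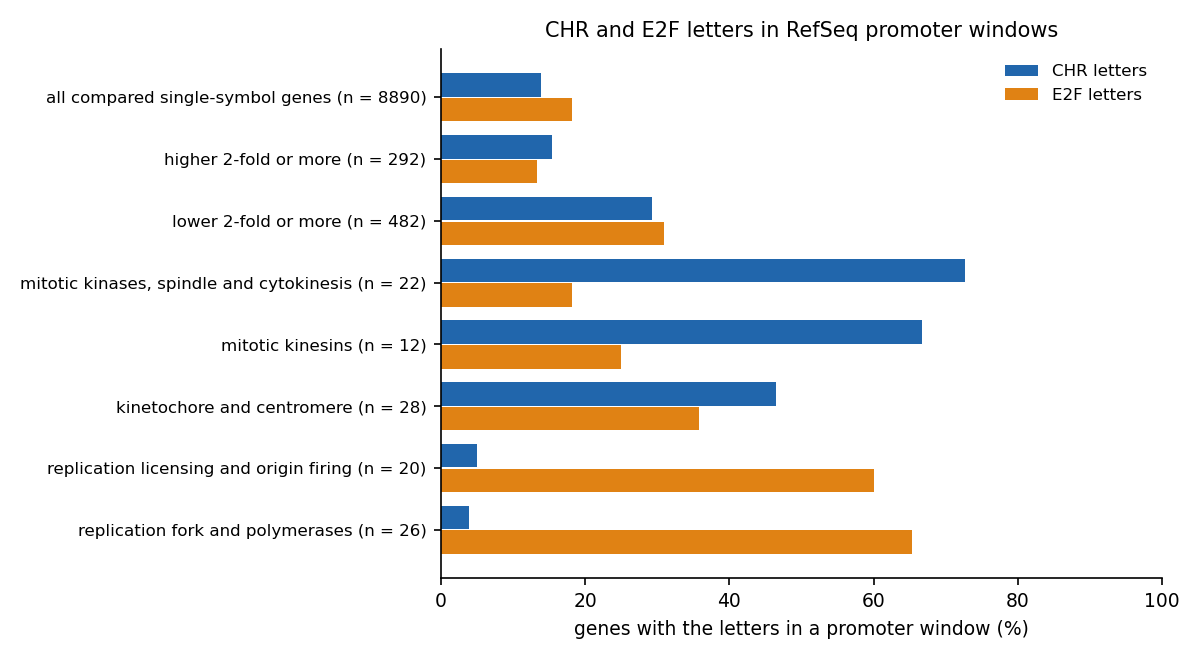
Percent of genes with the CHR or the E2F letters in a RefSeq promoter window, for all compared single-symbol genes, those that rose, those that fell, and 5 division lists (n is the number of genes with a window). CHR letters reach 72.7% in mitotic kinases and spindle genes and E2F letters 65.4% in fork genes, against 13.8% and 18.2% over all genes.

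H3.3 itself is encoded by H3F3A and H3F3B. H3F3B was at 105 FPKM in growing, 229 in early, 449.7 in late and 90.5 in OIS, and rose 4.23-fold between growing and late. H3F3A was at 190.5, 129.5, 132 and 236 FPKM, a difference of -0.53 that did not reach 2-fold. The early and late libraries were thus the highest of the 4 for H3F3B and the lowest for H3F3A. FPKM per locus cannot separate an H3.3 construct from the cell's own gene, and the sources used here do not say which of the genes the construct copies.

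Of the 17 genes of H3.3 and the H3 chaperones 8 fell. They were the CAF-1 subunits CHAF1A (12.1 to 4.23 FPKM) and CHAF1B (7.9 to 0.845), ASF1B (11.8 to 0.312), NASP, MCM2, DEK, which is also known to carry H3.3, and the FACT subunits SSRP1 and SUPT16H. In 5 other genes of the H3.3 chaperones, chosen after their values were seen, the difference was under 2-fold. HIRA was at 10.6 FPKM in growing and 8.96 in late, UBN1 at 10.5 and 10.6, CABIN1 at 22.6 and 26.2, ATRX at 8.43 and 8.29, and DAXX at 47.3 and 38.5. The late library was above growing for UBN1 and CABIN1 and below it for the other 3.

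Of 27 clustered histone genes compared, 11 rose and none fell, although 2 fell with a pseudocount of 0.1. The median of 0.67 ranged from 0 with no filter to 1.43 with a filter of 5 FPKM. Their share of the summed FPKM of named loci went from 0.0517% in growing to 0.156% in late. HIST1H1C, a linker histone, was at 25.4 FPKM in growing, 20.7 in early, 149 in late and 27.5 in OIS. HIST1H4H was at 6.94, 23.4, 45 and 15.1 FPKM. HIST1H2AC went from 42 to 136 FPKM and HIST1H2BK from 79.5 to 180.2. Most histone mRNAs made in S phase end in a stem-loop and not in a poly(A) tail, and these libraries were poly(A)-selected, so the values count polyadenylated or carried-over transcripts. The copies are also near-identical, which makes the value of a single copy uncertain. Another 39 listed copies were below 1 FPKM in growing and late.

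Among other chromatin proteins, H2AFZ, the H2A.Z histone, was at 278 FPKM in growing, 97.5 in early, 76.5 in late and 124 in OIS, and fell 3.59-fold. In the high mobility group list 5 of 9 fell and none rose (median -1.46). HMGB2 fell from 69.7 to 6.75 FPKM, HMGB1 from 111 to 27.4 and HMGA2 from 149.9 to 53.7. HMGA1, an architectural protein of senescent heterochromatin, was at 667 FPKM in growing, 414 in early, 204 in late and 1287 in OIS, so it was lowest in the late library and highest in OIS. Of the lamina genes 5 of 14 fell. LMNB1 was at 30.8, 5.03, 1.09 and 0.989 FPKM, a fall of 15.2-fold, LMNB2 fell 2.4-fold, and the lamin-binding proteins LBR and TMPO fell 2.72-fold and 6.23-fold.

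Genes that copy DNA methylation fell: the methyltransferase DNMT1 from 33.3 to 12.6 FPKM and its guide UHRF1 from 37.2 to 4.81 FPKM. The list of methylation and heterochromatin genes had 5 of 16 lower and none higher. The Polycomb list had 2 of 18 lower: EZH2, the enzyme that writes H3K27 methylation, from 11.9 to 1.33 FPKM, and CBX2 from 2.14 to 0.272 FPKM. The median of this list, -0.052, was close to that of all loci.

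Growth machinery differed by less. Of 68 ribosomal protein genes 2 fell, RPL39L from 15 to 1.54 FPKM and RPL22L1 from 22.8 to 5.82, both of them paralogs of a standard subunit. The median of the list was -0.38, with 1 member above 0, and its share of summed named FPKM was 10.1% in growing and 7.91% in late. None of 72 mitochondrial ribosome genes (median -0.16) and none of 18 aminoacyl-tRNA synthetase genes (median -0.12) was past 2-fold. Splicing factors of the SR and hnRNP families had 4 of 25 lower, including HNRNPA2B1 from 227 to 99.7 FPKM and SRSF3 from 64.1 to 29.5, and nuclear pore genes had 5 of 25 lower. Of 14 housekeeping genes none was past the fold. ACTB was at 5616 FPKM in growing and 5623 in late, GAPDH at 3468 and 3299.7, and the median of that list was -0.30.

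The largest rises were also set beside the early and OIS libraries. In all 30 of them, each at least 5.07-fold, the late library was the highest of the 4. The ranking itself had placed late above growing. In 18 the early library was below growing, and in 16 OIS was below growing. Over all 11685 loci the early library was below growing in 6341 and OIS in 5791, so both counts were near the share over all loci. The summed FPKM of named loci was also lower in early, at 367086 against 438922 in growing, and was higher in OIS, at 517337. The 4 largest were those of ANKRD1, NPPB, CCND2 and TGFB2.

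**Figure D4:**
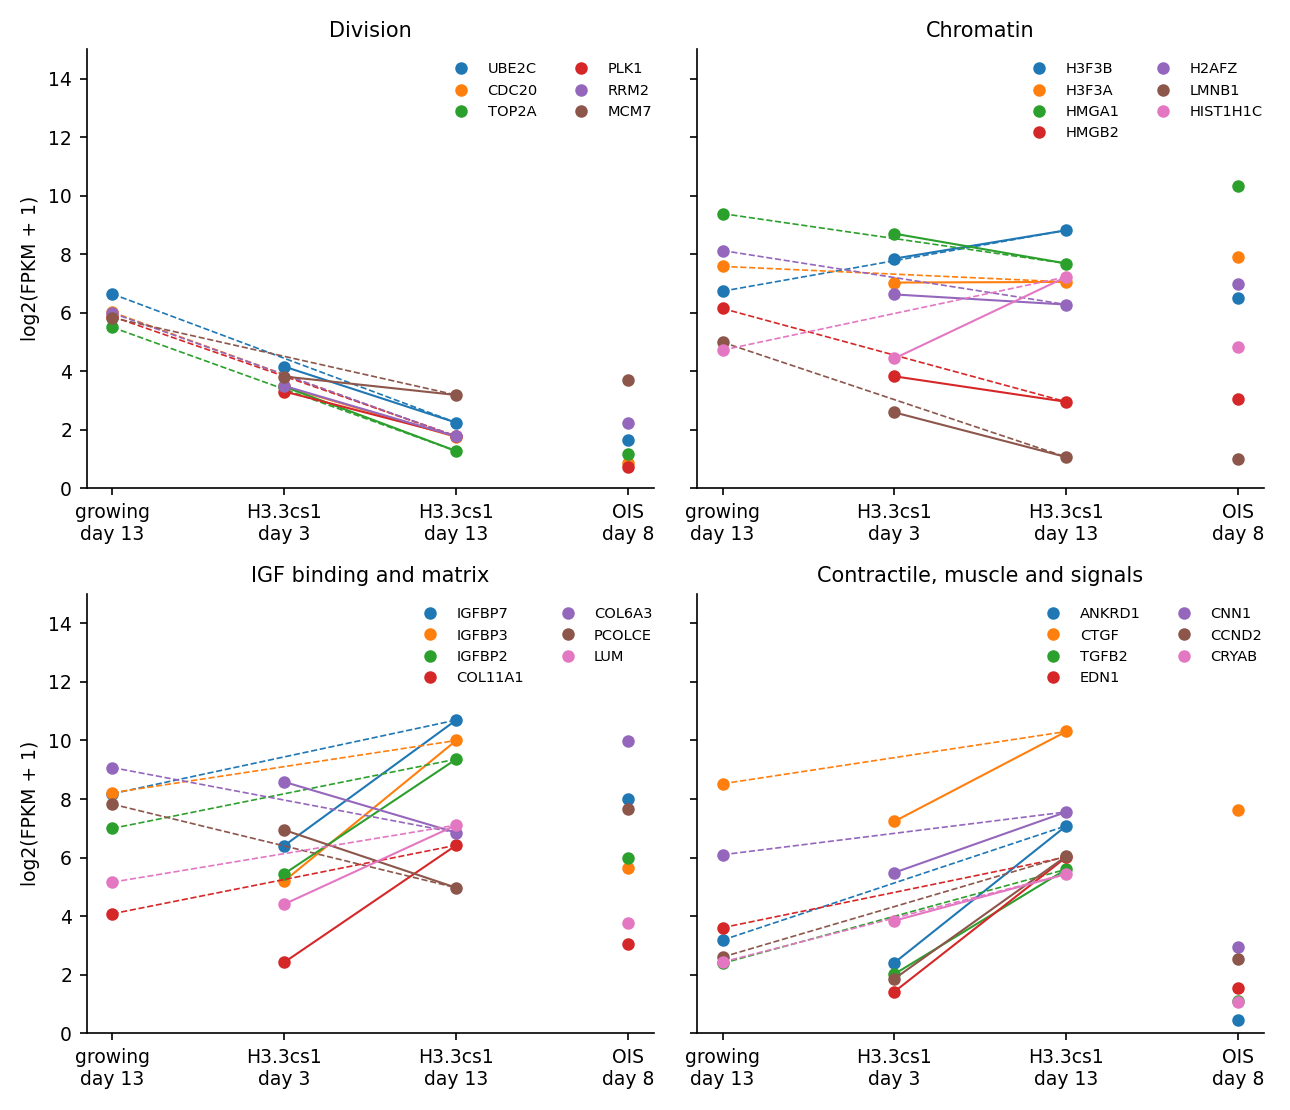
Level of 27 genes, picked after their values were seen, in each of the 4 libraries as log2(FPKM + 1), 1 point a library, with dashed lines joining growing to late and solid lines joining early to late. Division genes are lower in early than in growing and lower again in late, whereas IGFBP7, ANKRD1, CTGF and TGFB2 are lower in early than in growing and highest in late. The growing culture was at day 13, so growing, early and late are not a time course.

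Genes of the IGF system, whose binding proteins hold insulin-like growth factors outside the cell, rose in 5 of the 12 on loci of their own, and none of these fell (median 0.51). The growth factor gene IGF2 is on the joined locus IGF2,INS,INS-IGF2, which is not counted in the list and fell from 33.1 to 11 FPKM. IGFBP7 was at 289 FPKM in growing, 84 in early, 1661 in late and 257 in OIS, and was the largest gain in FPKM of all single-symbol loci. IGFBP3 was at 296, 35.8, 1023 and 48.8 FPKM, and IGFBP2 at 127, 42.6, 657 and 62.1 FPKM. All 3 were lower in early than in growing and highest in late. PAPPA, a protease that frees IGF from its binding proteins, rose from 7.06 to 42.2 FPKM. The whole list held 0.62% of named FPKM in growing and 1.4% in late.

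Collagen genes split. Of 20 compared chains 4 rose and 3 fell (median 0.17). COL11A1, a fibrillar chain, was at 15.9 FPKM in growing, 4.36 in early, 84.7 in late and 7.23 in OIS, a rise of 5.07-fold. COL8A1 rose from 92.8 to 205 FPKM and the basement membrane chain COL4A5 from 8.3 to 24.8. COL6A3, a chain of the beaded type VI filament, was at 538, 383, 114 and 1018 FPKM, and fell 4.67-fold. Its partner chains were at 938 FPKM in growing and 474 in late for COL6A1, and at 1093 and 638 for COL6A2, under the fold. All 3 type VI chains were lower in early and late than in growing, and highest in OIS. COL12A1 fell from 136 to 43.7 FPKM. The main fibrillar chains COL1A1, at 4156 and 5172 FPKM, and COL1A2, at 2200.1 and 2719.8, were higher in late without reaching 2-fold. PCOLCE, the enhancer of procollagen cleavage, was the 1 of 21 collagen-processing genes that changed, at 226 FPKM in growing, 122 in early, 30.3 in late and 203 in OIS.

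Small proteoglycans that coat collagen fibrils rose in 3 of 5. The other 2 were below 0, and the summed FPKM of the list was lower in late, at 507 against 597 in growing. Their median of 1.12 ranged from 0.13 to 1.89 over the alternatives. LUM went from 34.7 to 137 FPKM, PODN from 1.99 to 19.6 and FMOD from 0.591 to 2.46. Matricellular proteins, which signal from the matrix, rose in 4 of 16 and fell in none (median 0.48). CTGF was at 366 FPKM in growing, 149.8 in early, 1267 in late and 197 in OIS. POSTN went from 19.5 to 59.8 FPKM, THBS2 from 4.41 to 13 and TGFBI from 502 to 1081. Elastic fibre genes rose in 2 of 16 and fell in 2, and the other 12 did not reach 2-fold (median 0.20). EFEMP1 rose from 23.9 to 93.2 FPKM and FBLN1 fell from 54.5 to 8.85. ITGA11, the subunit of a collagen receptor of fibroblasts, rose 7.94-fold, from 4.21 to 40.3 FPKM, whereas ITGA2, the subunit of another collagen receptor, fell from 51.5 to 18.5.

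Matrix proteases did not move as a block. Of 12 MMP and TIMP genes 2 rose and 3 fell. MMP1, the interstitial collagenase, was at 416 FPKM in growing, 52.9 in early, 108 in late and 7849 in OIS. The urokinase PLAU was at 354, 87.6, 143 and 2214 FPKM and its receptor PLAUR at 135, 39.2, 52.2 and 189, and both fell between growing and late. All 3 were lower in late than in growing and highest in OIS. Of the ADAM and ADAMTS proteases 4 of 18 rose and none fell, including the aggrecan-cleaving ADAMTS5 from 1.41 to 8.7 FPKM. The serpin SERPINE2, a protease inhibitor, rose from 74.2 to 287 FPKM, and SERPING1, the inhibitor of complement C1, from 1.74 to 16.2.

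Smooth muscle and stress fibre genes were higher in part: 4 of 30 rose, none fell and 22 were above 0 (median 0.20). CNN1, the calponin of contractile cells, was at 67.4 FPKM in growing, 43.8 in early, 188 in late and 6.68 in OIS. TPM1, a tropomyosin, rose from 419 to 874 FPKM and LMOD1, a leiomodin, from 16.1 to 36.5. Of 26 genes listed for heart and skeletal muscle 7 reached 1 FPKM in growing or late and 5 of them rose. Another 19 were below 1 FPKM in both libraries. The median of 1.15 ranged from 0.061 to 3.74 over the alternatives. ANKRD1, a stretch-responsive ankyrin repeat protein, was at 8.07 FPKM in growing, 4.31 in early, 135 in late and 0.382 in OIS, the largest of the ranked rises at 15-fold. NPPB, the natriuretic peptide B gene, was at 0.284, 0.18 and 16.1 FPKM in growing, early and late, and listed at 0 in OIS. CRYAB, a small heat shock protein of muscle, was at 4.4, 13.3, 42.3 and 1.11 FPKM. The other 2 that rose were at low levels, ACTC1 at 1.47 FPKM in late and TNNT2 at 1.85, and the defining genes MYOD1, MYH6 and MYH7 were listed at 0 in all 4 libraries. NPPB, ACTC1 and TNNT2 passed the filter of 1 FPKM through the late library only, so the count of 5 follows in part from that filter.

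ANKRD1 and CTGF are known targets of YAP and TEAD, a pair that acts on mechanical signals. Of the list of YAP and TEAD genes and their core targets 3 of 22 rose and none fell, and the median was -0.062, close to that of all loci. Those 3 were ANKRD1, CTGF and F3, the tissue factor gene, at 129 FPKM in growing, 33.9 in early, 317 in late and 344 in OIS. CYR61, a target often read beside CTGF, was at 339.5 FPKM in growing and 429.7 in late, below the fold. YAP1 was at 52.7 and 35.8 FPKM and WWTR1 (TAZ) at 23.8 and 14.4. The rises were thus in 3 targets and not across the list. The TEAD letters GGAATG, searched on both strands, are shown in 3 genes that rose: ANKRD1, CTGF and TGFB2. Of the other genes looked at for them, NPPB had no window and CNN1 no match before the start.
ANKRD1 (chr10:90921166-90921255, strand -): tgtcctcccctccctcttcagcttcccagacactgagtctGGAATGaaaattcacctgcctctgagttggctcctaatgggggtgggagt
CTGF (chr6:131951418-131951507, strand -): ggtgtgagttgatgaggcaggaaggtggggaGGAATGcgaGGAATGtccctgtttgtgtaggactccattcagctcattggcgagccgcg
TGFB2 (chr1:218345111-218345200, strand +): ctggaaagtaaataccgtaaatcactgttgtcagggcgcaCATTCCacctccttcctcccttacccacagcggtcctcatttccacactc

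The window of TGFB2 shows the letters of the opposite strand, and CTGF is listed as CCN2 in RefSeq. Among genes with a window, TEAD letters were in 14.9% of all, 21.6% of those that rose and 17.0% of those that fell. They were in 8 of 16 of the YAP and TEAD list (50%), 14 of 28 of the smooth muscle and stress fibre list (50%) and 4 of 5 heart and skeletal muscle genes (80%). Lists with few or no rises also held them. The SRF and myocardin list, with none of 7 genes past 2-fold, had them in 3 of 6 (50%). Transport and other kinesins, of which 1 of 19 rose, had them in 5 of 15 (33.3%).

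Of 27 TGF-beta ligand, receptor and SMAD genes 2 rose and none fell, and both were ligands. TGFB2 was at 4.23 FPKM in growing, 3.06 in early, 47.5 in late and 1.15 in OIS, and rose 9.28-fold. TGFB3 rose from 0.848 to 3.35 FPKM, while TGFB1, the most abundant of the 3, was at 97.7 and 66.7. In the BMP list 4 of 21 rose and 3 fell. The ligand BMP4 rose from 2.83 to 14.4 FPKM, the extracellular regulator BMPER from 4.91 to 19.6 and the decoy receptor BAMBI from 5.77 to 16.2. ID1 and ID3, target genes of BMP receptors, fell from 66 to 26.3 and from 93.7 to 45 FPKM, so the ligand and the targets lay on opposite sides.

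Vasoactive peptide and receptor genes rose in 5 of 20 and fell in 1 (median 0.077), against 3.69% higher and 5.71% lower over all loci. EDN1, the vasoconstrictor endothelin, was at 11.2 FPKM in growing, 1.67 in early, 63.8 in late and 1.94 in OIS. The oxytocin receptor OXTR was at 22.7, 10.4, 52.2 and 0.165 FPKM. STC1 and STC2, the stanniocalcins, went in opposite directions, STC1 from 35.9 to 7.16 FPKM and STC2 from 115 to 258. In the Notch list 2 of 12 genes rose and 1 fell. The Notch ligands JAG1 and JAG2 rose, from 5.32 to 14.4 and from 0.387 to 3.96 FPKM, and the ligand DLL4 fell from 3.32 to 0.364. In the list of ERK feedback and output 4 of 15 fell and none rose, including PHLDA1 from 59.3 to 22.7 FPKM and the AP-1 gene FOSL1 from 157 to 66.1. Potassium channel genes fell in 6 of 16 and rose in 1, with KCNG1 going from 20.5 to 4.14 FPKM and KCNK2 from 17.5 to 4.55. NRP1, a co-receptor of VEGF and semaphorins, fell from 84.4 to 25.8 FPKM, and SLIT2, a guidance ligand, from 10.8 to 2.08. Axon guidance genes rose in 2 of 36 and fell in 4, and FGF, PDGF, VEGF and HGF genes rose in 2 of 19 and fell in 2.

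Secreted inflammatory signals are a common mark of senescent fibroblasts. Of 28 cytokine and chemokine genes listed, 12 reached 1 FPKM in growing or late, none rose and 2 fell. CXCL12, a chemokine of fibroblasts, was at 27 FPKM in growing, 20.4 in early, 2.56 in late and 0.236 in OIS. IL6 was at 3.07 FPKM in growing and 7.12 in late, just under the fold, against 195 in OIS. Under 5 alternatives 1 or 2 members of the list were past the fold on the higher side: 2 with a pseudocount of 0.1, and 1 after rescaling, centring, quantile normalization or summing of lines. IL1B was at 1.74 and 1.22 FPKM against 2869 in OIS. The p53 list had 3 of 29 higher and none lower (median 0.11): CDKN1A, GADD45A from 54 to 124 FPKM, and GDF15 from 41.9 to 132. None of 10 BCL2 family genes was past the fold. HLA-C went from 61.1 to 167 FPKM and was the 1 of 12 compared genes of MHC class I presentation that rose. PSMB9 of the same list, a subunit of the immunoproteasome, fell from 3.22 to 1.01. The value of HLA-C is uncertain because HLA genes are near-identical.

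The label of fibroblasts was checked against markers. Of 12 fibroblast markers 11 were compared, and VIM (3281 FPKM in growing and 2291 in late), FN1 (2215 and 2507), THY1 (453 and 512) and COL1A1 were abundant in both libraries. Of 10 endothelial markers 2 reached 1 FPKM, with ROBO4 at 1.19 and 0.292 FPKM, and CDH5 was listed at 0 in all 4 libraries. No leukocyte marker reached 1 FPKM. Of 15 epithelial markers 4 did. KRT18, a keratin of simple epithelia, rose from 80 to 170.4 FPKM, while its partner KRT8 was at 7.5 and 10.1, EPCAM at 0.211 and 0.19, and KRT5 at 0 in all 4. KRT18 was the only marker of these 3 other cell types past the fold between growing and late.

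Transcription factors of fibroblasts fell in 7 of 29 and rose in 1 (median -0.44). PRRX1, a mesenchymal homeobox factor, was at 22.8 FPKM in growing, 19.1 in early, 2.79 in late and 15.6 in OIS, a fall of 6.28-fold, and its paralog PRRX2 fell from 15.2 to 3.28. ZEB1, a repressor of epithelial genes, was at 18.8, 10.6, 7.95 and 57.4 FPKM. RUNX1 was the factor that rose, from 14.1 to 30.4 FPKM. None of 8 HOX genes was past the fold.

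Most cholesterol and lysosome genes lay above 0 by less than 2-fold, while over all loci 5367 of 11685 lay above 0. Of 24 cholesterol genes 21 were above 0 and 3 rose (median 0.75): DHCR7 from 34.9 to 80.7 FPKM, IDI1 from 19.7 to 45.6 and MSMO1 from 32.1 to 78.8, all enzymes of the pathway. Of 18 fatty acid genes 12 were above 0, 2 rose and 1 fell (median 0.075). Of 34 lysosomal genes 24 were above 0 and 5 rose (median 0.44). ASAH1, the acid ceramidase, was at 39.2 FPKM in growing, 143 in early, 145 in late and 91 in OIS, and PSAP, the precursor of saposins, went from 309 to 637 FPKM. The legumain gene LGMN rose from 13.8 to 44.4 FPKM. CTSL1, the cathepsin L gene, whose product is known to cleave histone H3, was at 68.1 FPKM in growing, 66.4 in early, 57.8 in late and 101 in OIS, a difference of -0.23. None of 29 autophagy genes was past the fold (median 0.21). Respiratory chain genes had 1 of 71 higher (median -0.02), and glycolysis and hypoxia genes 2 of 30 higher and 1 lower.

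Counted in FPKM, the largest differences were in abundant genes, and most of the losses were under 2-fold. Of the 15 largest gains in FPKM 9 were past 2-fold, and of the 15 largest losses 5 were. Besides IGFBP7, the gains included MFGE8, a secreted adhesion protein, at 783 FPKM in growing and 1656 in late, and GAS6, a ligand of TAM receptors, at 637 and 1381. The metallothionein MT2A was the largest loss, at 2804 FPKM in growing, 1299.9 in early, 1323 in late and 6311 in OIS. BCYRN1, a small non-coding RNA, was at 909, 195, 332 and 242 FPKM. SNORD12B, a small nucleolar RNA, was at 682 FPKM in late and listed at 0 in the other 3. Short RNAs are poorly sized by FPKM, and poly(A) selection is not made to keep them.

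**Figure D5:**
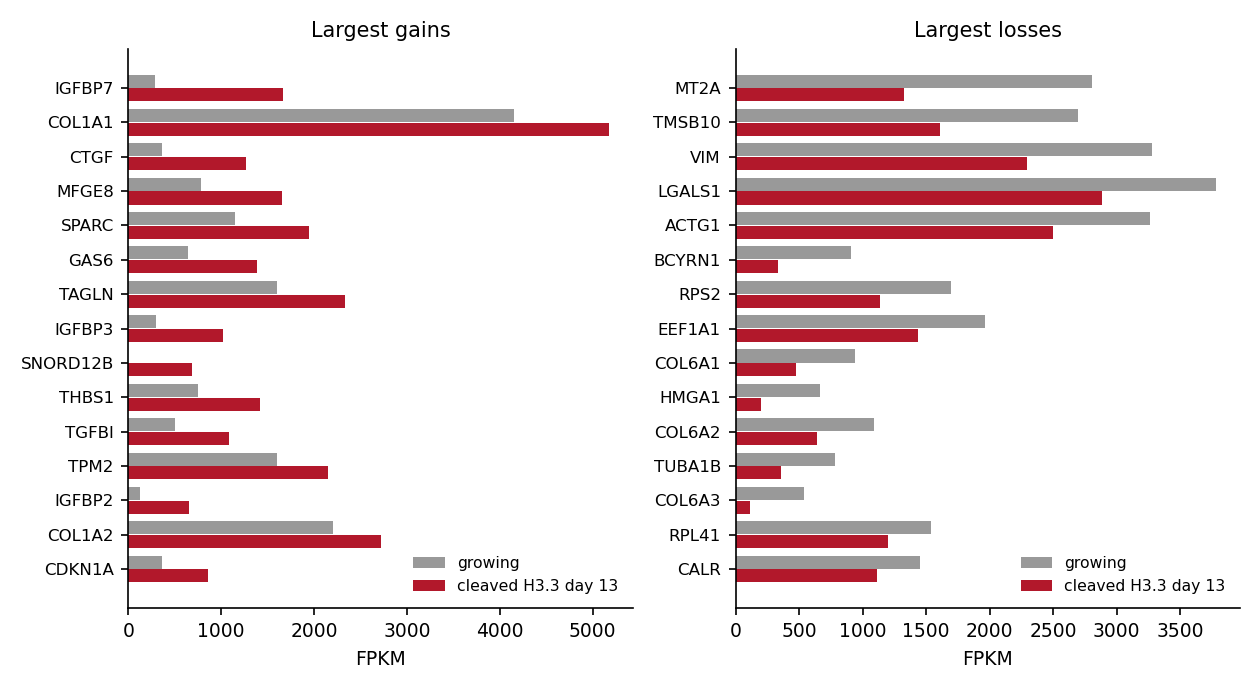
FPKM in growing (grey) and late (red) of the 15 single-symbol loci with the largest gains and the 15 with the largest losses, 1 library a side. IGFBP7 heads the gains at 289 and 1661 FPKM, and MT2A heads the losses at 2804 and 1323.

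Of the loci past 2-fold 48 were listed at 0 in 1 of the 2 libraries, 18 in growing and 30 in late, and no fold is given for them. Of the 21 that were at 20 FPKM or more in the other library 17 were small RNAs. The other 4 were listed at 0 in late only: ATP13A3 at 38.3 FPKM in growing, PAF1 at 30.8, SAMD4B at 30.6 and SBF1 at 21.7. All 4 had values above 20 FPKM in the early and OIS libraries, and a 0 in such files can be a failed estimate. Another 588 of the compared loci join several genes under 1 name, and 21 of them rose and 36 fell. These hold some division genes, such as the locus BBS7,CCNA2 with the S-phase cyclin gene, which went from 34.8 to 6.98 FPKM.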

How the data were processed

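Poly(A) RNA of 4 IMR90 cultures was sequenced, 1 library a group. The deposited FPKM values, 1 per locus, were made by the authors. Cufflinks 2.1.1, Bowtie2, TopHat2 2.0.3 and the build hg19 are named in the submitters' processing notes. No source used here gives read counts, strand handling, the treatment of multi-mapping reads or any scaling between libraries. The header line of each file is shifted against its values, so values were read by position, and files were matched to samples by GEO's record. The RefSeq sequences are of GRCh38.p14, another build, and were matched by symbol.

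Loci without a name (2310) were left out. A symbol on several lines is represented in lists by the line with the highest mean. Differences used a pseudocount of 1 and a filter of 1 FPKM in either library, with a size rule of 2-fold and no test. A run on simulated data checked the code only, and not how reliable the 2-fold rule is for these libraries. Named genes were H3F3A, H3F3B, CTSL1 and HRAS, members of 81 gene lists past 2-fold or among the 6 largest differences, the 30 largest rises and falls at 5 FPKM or more (short, antisense and uncharacterised RNAs left out), the 15 largest gains and losses in FPKM, cell type markers, and loci at 0 in 1 library and at 20 or more in the other. ATRX, CABIN1, DAXX, HIRA, UBN1, IL1B, TGFB1, CYR61, WWTR1, YAP1, MYOD1, MYH6 and MYH7 fall outside this rule and were chosen after their values were seen. Members, lists and alternatives were chosen with earlier results of these data known, and promoter examples and plotted genes after values were seen. HRAS, which checks the OIS label, was at 47.4 FPKM in growing, 49.8 in early, 41.9 in late and 3153 in OIS. A few members of the lists are not reported here. Python 3.11.15, pandas 2.3.3 and numpy 2.4.6 were used.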

Additional observations from a re-analysis of the deposited data

How the results depend on the processing

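Without replicates, stability was read only from 9 processing alternatives. The count of loci at least 2-fold higher was 701 with a pseudocount of 0.1, against 431. The share of called loci that were higher, 39.3%, became 42.9% with that pseudocount, 43.5% after centring on the median and 45.3% after quantile normalization. The other counts over all loci stayed within 1.5 times. Within lists, a filter of 5 FPKM, which tests fewer genes, moved the count of lower members by over 1.5 times in 14 lists, such as fork genes 12 against 19, recombination and Fanconi genes 7 against 15, E2F and DREAM genes 3 against 6 and cohesin 2 against 4. The median over all loci turned from -0.044 to 0.021 under quantile normalization. Of 432 genes followed, 7 no longer reached 2-fold after centring, 14 after quantile normalization (1 more did), 3 after rescaling to the same sum and 1 when lines of a symbol were summed. None turned its direction, but most had been chosen for a difference past 2-fold, which these alternatives could hardly turn. With the filter of 5 FPKM 370 of the 432 could be followed, and with loci listed at 0 left out 410. List medians changed sign in 6 lists after centring, 5 after quantile normalization, 4 with a filter of 5 FPKM, 4 with no filter, 1 after rescaling and 1 with the other pseudocount. Of these medians 3 were at least 0.1 from 0 before the change: cytokines went from -0.21 to 0.036 with the filter of 5, and BCL2 genes from 0.11 to -0.092 and cadherins from -0.28 to 0.0013 with no filter. Interferon-stimulated genes went from -0.034 to 0.37 with the filter of 5. No paired analysis was possible because each group has 1 library. The cause of these shifts was not tested.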

Other observations

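Loci without a gene name, left out above, held 49.0% of the summed FPKM in growing, 57.9% in early, 48.0% in late and 47.4% in OIS. Of these loci, 975 reached 1 FPKM in growing or late, and 220 were higher by 2-fold or more (22.6%) and 75 lower (7.69%), with a median difference of 0.51. Named loci had 3.69% higher and 5.71% lower. What the unnamed loci are was not analysed here.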
